A study of Homo sapiens with 4 samples.

Results

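Transcript levels of 10 MAP kinase phosphatases of the dual-specificity phosphatase (DUSP) family were examined among 18417 genes with an unambiguous symbol on the array. The rule lists the members by gene symbol and uses no measured value, although the list was drawn up with earlier results of these data known. They are DUSP1, DUSP2, DUSP4, DUSP5, DUSP6, DUSP7, DUSP8, DUSP10, DUSP14 and DUSP16, and the array annotation assigned exactly 1 probe group (a transcript cluster) to each of these symbols alone. The cells were AGS, an established human gastric carcinoma line, grown in medium with serum and treated before the layer was fully confluent. One group received ornithogalum at 0.01% and the other the ethanol vehicle, both for 36 h, with 2 arrays per group that the labels call biological replicates. Ornithogalum is a genus of bulbous plants, and the labels do not say how the preparation was made. Nothing says that the replicates were independent experiments, and the p-values therefore cover only the spread between these cultures. All values are the authors' RMA (robust multi-array average) expression levels on a log2 scale.

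MAP kinase phosphatases remove phosphate from both the threonine and the tyrosine of the activation loop of MAP kinases and so switch ERK, JNK and p38 off. Many of their genes are themselves transcribed in response to MAP kinase activity, which makes them negative feedback regulators. Nuclear members such as DUSP1, DUSP2, DUSP4 and DUSP5 are products of early response genes, whereas DUSP6 and DUSP7 are cytoplasmic and act on ERK. In gastric and other epithelia the pathway relays growth factor and stress signals.

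Of the 10 members, 6 rose in ornithogalum-treated cells and 0 fell. The 6 were DUSP6 (4.83-fold), DUSP1 (4.25-fold), DUSP10 (3.67-fold), DUSP14 (3.19-fold), DUSP4 (2.95-fold) and DUSP8 (1.64-fold). Groups were compared with limma, and rose or fell refers to an adjusted p under 0.05 over all 21214 clusters tested. Over those clusters 6.57% were called higher and 12.6% lower. Before adjustment 7 members had p under 0.05, 6 of them higher and 1 lower (DUSP7). At that level 3004 of the 21214 clusters were higher and 4156 lower. These shares and counts over all clusters are also the background for the gene lists below. The median log2 difference between treated and vehicle cells was 1.14 over the members and 0.035 over all clusters tested. The arrays did not overlap between groups in 7 members on the higher side and 2 on the lower side, against 32% and 30.2% of all clusters.

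The calls needed both vehicle arrays. Without vehicle replicate 1 or vehicle replicate 2 limma called 0 clusters of the whole table (4192 and 3986 had an unadjusted p under 0.05), and 6 of 10 members were under that level in each case. The log2 differences of the 6 members then ran from 0.71 to 2.41, with adjusted p = 0.0605 to 0.159. Without ornithogalum replicate 1 the log2 differences of the 6 members ran from 0.72 to 2.18, and without ornithogalum replicate 2 from 0.71 to 2.36. Those fits take their replicate spread from the vehicle pair alone. Its pooled SD was smaller than that of the ornithogalum pair (0.14 against 0.258). Centring each array on its median moved the median difference of all clusters from 0.035 to 0.195 and the calls from 1393 higher and 2683 lower to 2238 and 1898. The count of higher members was 6 under that scaling, when the median over the members was 1.30, and also 6 under quantile scaling and cyclic loess.

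**Figure D1:**
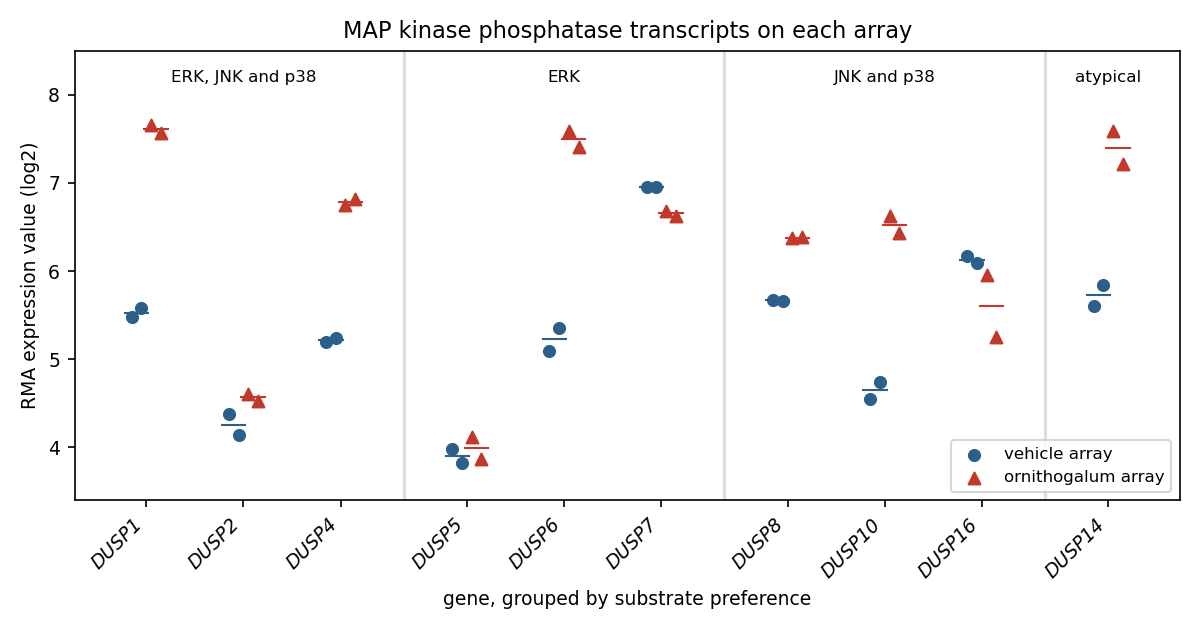
RMA expression value (log2) of each member on the 2 vehicle arrays (circles) and the 2 ornithogalum arrays (triangles), with group means as lines, ordered by substrate preference. Both triangles lie above both circles in 7 members and below them in DUSP7 and DUSP16, while DUSP5 overlaps, and heights of different genes are not comparable because their probes differ.

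Cultures were measured as whole RNA, so a rise in every cell and a larger share of cells with high levels cannot be told apart. The same holds for fewer cells of a type and less RNA per cell. Array medians were 4.48 and 4.62 with ornithogalum against 4.71 and 4.70 with vehicle. The pooled SD between replicates was 0.258 in the ornithogalum group and 0.14 in the vehicle group. Of 9 measured markers of a gastric epithelial line, 8 lay above the array median on every array, the exception being the trefoil factor gene TFF2. Of the 9, limma called 0 higher and 2 lower. KRT19, a keratin of simple epithelia, fell 2.63-fold, from 8.07 and 7.96 to 6.54 and 6.70 (adjusted p = 0.00437). TFF1, a trefoil factor of the gastric surface, fell 1.51-fold (adjusted p = 0.0324), a call held in 7 of 14 alternatives and lost among others under quantile scaling and median centring. Of 15 markers of fibroblasts, leukocytes and endothelium measured, 3 lay above the array median on every array. Limma called 1 of the 15, the lysosomal gene CD68 (2.26-fold higher). Summed log2 values ran from 21.5 to 22.6 with ornithogalum and 21.3 to 21.4 with vehicle for 6 fibroblast markers, and from 12.1 to 12.8 against 12.3 on both arrays for 4 endothelial markers. For 5 leukocyte markers they were 28.3 on both arrays against 26.8 to 27.0. Levels within this list differed widely. PTPRC, which encodes the pan-leukocyte antigen CD45, was at 1.44 to 1.74 on every array. LYZ was at 11.70 to 11.76 and made up a large part of the leukocyte sums. The part of such cells in the results was not tested.

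Members that act on ERK, JNK and p38 together are DUSP1, DUSP2 and DUSP4, and 2 of these 3 rose. DUSP1 is an immediate early gene whose nuclear product prefers p38 and JNK and also acts on ERK. Its values were 7.66 and 7.57 with ornithogalum and 5.48 and 5.58 with vehicle, with group means of 7.61 ± 0.062 and 5.53 ± 0.075 (SD, n = 2). Both treated arrays stood clear of both vehicle arrays, with a gap of 1.99 between the nearest pair. The log2 difference was 2.09 (SE 0.12, 95% interval 1.79 to 2.39; limma adjusted p = 0.00336), which ranked number 27 from the top among 21214 clusters.

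The promoter of DUSP1 is shown because it holds a complete cyclic AMP response element (CRE), the site bound by CREB and ATF factors, which few promoters carry. The window is chr5:172771146-172771445 on the minus strand of GRCh38.p14 (RefSeq), from 250 bases before to 50 after the start site, written 5′ to 3′. Motifs were searched on both strands, and a match describes letters, not a bound site. They were the CRE (TGACGTCA), its core (TGACG), the AP-1 site (TGANTCA), the E-box (CACGTG), the TATA box (TATAAA), the CCAAT box (CCAAT), the GC box (GGGCGG) and the CArG box of serum response factor. Each CRE contains a core on either strand. Capitals mark every match except the GC box.
DUSP1: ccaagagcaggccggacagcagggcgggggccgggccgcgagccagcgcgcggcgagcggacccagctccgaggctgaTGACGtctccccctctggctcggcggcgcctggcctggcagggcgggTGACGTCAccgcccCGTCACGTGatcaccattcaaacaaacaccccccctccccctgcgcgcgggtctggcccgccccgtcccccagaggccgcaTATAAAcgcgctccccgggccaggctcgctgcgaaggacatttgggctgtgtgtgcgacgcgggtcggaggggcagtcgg
The CRE of DUSP1 starts at position -125, counted with +1 as the first transcribed base. A core at -111 overlaps an E-box at -108, another core starts at -172 and a TATA box starts at -30. Of all 35116 promoter windows, 1.85% hold the CRE, 24.6% the core, 7.26% the E-box and 11.5% the TATA box.

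DUSP4, a nuclear phosphatase of the ERK, JNK and p38 class and a textbook ERK-induced gene, had values of 6.75 and 6.82 with ornithogalum and 5.20 and 5.24 with vehicle. The groups were apart by 1.51, and the replicates of each group lay close together. The log2 difference was 1.56 (SE 0.11, interval 1.28 to 1.85; limma adjusted p = 0.00336), number 106 from the top. DUSP2, best known from activated lymphocytes, gave 4.61 and 4.53 against 4.38 and 4.14. Its treated arrays were the higher ones by only 0.15, and the log2 difference of 0.31 (interval -0.03 to 0.65) was not called (adjusted p = 0.18). DUSP2 was also dim, with a mean log2 value under the brightness minimum of 5 that was used as an alternative filter.

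Of the 3 members selective for ERK, DUSP6 rose and DUSP5 and DUSP7 were not called. DUSP6, the cytoplasmic phosphatase most closely tied to ERK feedback, had values of 7.59 and 7.41 against 5.09 and 5.36, with means of 7.50 ± 0.125 and 5.23 ± 0.192 (SD, n = 2). This was the largest difference among the members, 2.27 on the log2 scale (SE 0.15, interval 1.89 to 2.65; limma adjusted p = 0.00336), number 20 from the top. The nearest treated and vehicle arrays were 2.05 apart. Its promoter, chr12:89352452-89352751 on the minus strand of GRCh38.p14, is shown beside that of DUSP1 because it differs in these motifs.
DUSP6: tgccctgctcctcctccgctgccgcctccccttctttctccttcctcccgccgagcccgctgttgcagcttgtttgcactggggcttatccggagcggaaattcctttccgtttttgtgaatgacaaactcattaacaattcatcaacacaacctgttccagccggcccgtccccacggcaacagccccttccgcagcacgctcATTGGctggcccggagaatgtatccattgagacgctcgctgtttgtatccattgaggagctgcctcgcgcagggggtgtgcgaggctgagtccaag
Of the 8 motifs searched, the DUSP6 window holds only the CCAAT box, on the minus strand at -46, as 34.6% of all windows do. Its GC content was 58.3%, against 73.3% for DUSP1 and a median of 58.7% over all windows.

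DUSP7, the cytoplasmic relative of DUSP6, had lower values with treatment. It gave 6.68 and 6.63 with ornithogalum and 6.96 on both vehicle arrays. The treated arrays were lower by 0.27 at the nearest, but the log2 difference of -0.30 (SE 0.11, interval -0.58 to -0.02) was not called (limma adjusted p = 0.132). It was called lower in 3 of 14 alternative settings, among brighter clusters only (adjusted p = 0.0347) and with an intensity trend in the variance, plain or robust (adjusted p = 0.0452 for the robust form). DUSP5, a nuclear phosphatase specific to ERK, gave 4.12 and 3.87 against 3.98 and 3.82. Its groups overlapped, and the interval of the difference in array signal, -0.27 to 0.46, leaves out a rise in signal of the size seen in DUSP6. DUSP5 was dim, like DUSP2, so the interval does not bound the change in transcript level of DUSP5. Its pseudogene DUSP5P1 had 2 clusters of its own, with log2 differences of -0.60 (limma adjusted p = 0.042) and -0.10 (adjusted p = 0.851). Whether their probes overlap those of DUSP5 was not checked.

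**Figure D2:**
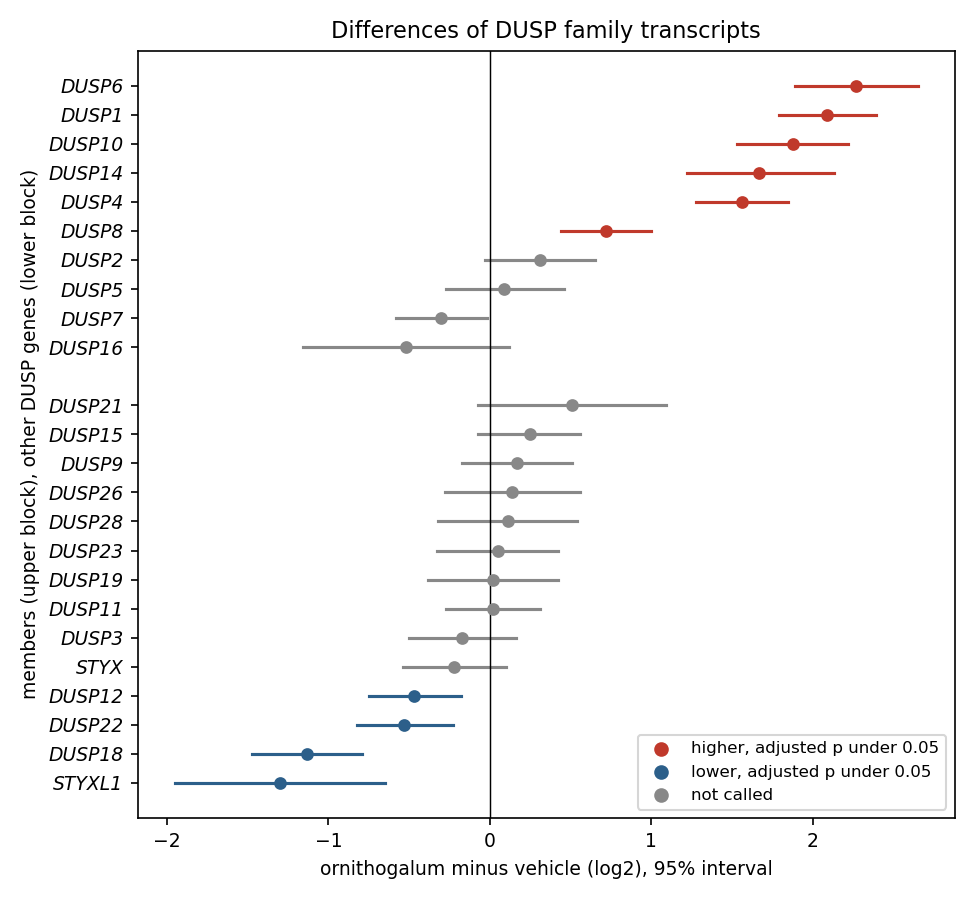
Log2 difference between ornithogalum and vehicle (points) with its 95% interval from limma (bars) for the 10 members, upper block, and 14 other DUSP family genes, lower block. The 6 called members lie between 0.72 and 2.27, while the 4 called genes of the lower block lie between -1.30 and -0.47.

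Of the 3 members that prefer JNK and p38, DUSP10 and DUSP8 rose and DUSP16 was not called. DUSP10, a phosphatase of p38 and JNK induced by stress and cytokines, had values of 6.62 and 6.43 against 4.55 and 4.74. The groups were 1.69 apart, and the log2 difference was 1.88 (SE 0.14, interval 1.53 to 2.22; limma adjusted p = 0.00336), number 55 from the top. DUSP8, first described in neural tissue, gave 6.38 and 6.39 against 5.67 and 5.66. Its replicates lay closest of the called members, with SDs of 0.009 and 0.005, and the log2 difference was 0.72 (SE 0.11, interval 0.44 to 1.00; adjusted p = 0.0136). DUSP8 thus had the smallest difference of the called members, number 931 from the top.

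The promoters of these JNK and p38 phosphatases are shown because the DUSP8 window, like that of DUSP1, carries the complete CRE. The DUSP8 window is chr11:1572222-1572521 on the minus strand. RefSeq gives DUSP10 a pair of start sites, with windows chr1:221742040-221742339 and chr1:221736851-221737150, both on the minus strand of GRCh38.p14.
DUSP8: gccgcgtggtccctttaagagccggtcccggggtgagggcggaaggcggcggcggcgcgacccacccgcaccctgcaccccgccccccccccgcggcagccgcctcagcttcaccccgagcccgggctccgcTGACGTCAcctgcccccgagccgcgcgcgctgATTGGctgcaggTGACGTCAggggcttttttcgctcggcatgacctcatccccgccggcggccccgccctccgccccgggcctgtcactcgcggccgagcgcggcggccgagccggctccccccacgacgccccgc
DUSP10, first window: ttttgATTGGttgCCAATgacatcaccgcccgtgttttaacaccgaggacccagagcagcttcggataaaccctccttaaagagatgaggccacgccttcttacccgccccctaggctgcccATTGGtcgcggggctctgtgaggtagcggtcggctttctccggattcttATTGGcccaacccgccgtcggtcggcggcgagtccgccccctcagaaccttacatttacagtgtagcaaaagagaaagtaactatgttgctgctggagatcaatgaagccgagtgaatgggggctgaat
DUSP10, second window: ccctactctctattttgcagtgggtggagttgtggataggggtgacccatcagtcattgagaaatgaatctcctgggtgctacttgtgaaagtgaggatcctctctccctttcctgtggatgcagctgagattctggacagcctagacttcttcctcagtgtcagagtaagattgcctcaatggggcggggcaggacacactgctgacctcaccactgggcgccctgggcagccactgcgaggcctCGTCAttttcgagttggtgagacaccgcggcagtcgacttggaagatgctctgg
The DUSP8 window has 2 CREs, at -118 and -74, with a CCAAT box on the minus strand at -86 between them. The first DUSP10 window has 4 CCAAT boxes, at -245, -237, -128 and -79, and no core. The second has a core at -4 and no CCAAT box. Of the 10 members, 8 had a promoter in the RefSeq table, and the complete CRE was in 2 of them. The core was in 3, the E-box in 2 (DUSP1 and DUSP2), the TATA box in DUSP1 alone and the GC box in 7. The GC box is in 45% of all windows. The AP-1 site (7.71% of all windows) and the CArG box (1.29%) were in 0 of the 8. The complete CRE is absent from the windows of DUSP6, DUSP10 and DUSP14, which rose. It is also absent from those of DUSP2, DUSP7 and DUSP16, which were not called. A link between the CRE and the differences was not tested. The arrays do not show which start site was used.

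DUSP16, a JNK phosphatase, was the least even member. The ornithogalum arrays gave 5.96 and 5.25, and the vehicle arrays 6.17 and 6.09. Both treated arrays were lower, the first by 0.17 and the second by 0.88 from the vehicle mean. The log2 difference of -0.52 (SE 0.25, interval -1.16 to 0.12) was not called (limma adjusted p = 0.215). Without ornithogalum replicate 1 it was -0.88 (adjusted p = 0.0146), and without ornithogalum replicate 2 it was -0.17 (adjusted p = 0.319). A fall in DUSP16 thus rested on 1 array.

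DUSP14 is a small atypical phosphatase without the MAP kinase binding domain of the others. It had values of 7.59 and 7.21 with ornithogalum against 5.61 and 5.84 with vehicle. The groups were 1.37 apart, and the log2 difference was 1.67 (SE 0.18, interval 1.22 to 2.13; limma adjusted p = 0.0057), number 79 from the top. Its promoter window had the highest GC content of the 9 member windows, 81.0%.

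By substrate preference, the members acting on all 3 kinases had a median log2 difference of 1.56, those selective for ERK 0.09 and those preferring JNK and p38 0.72. Each of these classes has 3 members, so its median is the value of 1 gene, DUSP4, DUSP5 and DUSP8 in turn. DUSP5, which sets the ERK median, was dim. Every class held at least 1 member that rose and 1 that was not called. Values inside a class ranged more widely than the class medians. The ERK class ran from -0.30 to 2.27, the JNK and p38 class from -0.52 to 1.88, and the broad class from 0.31 to 2.09. A difference between the classes was not tested.

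**Figure D3:**
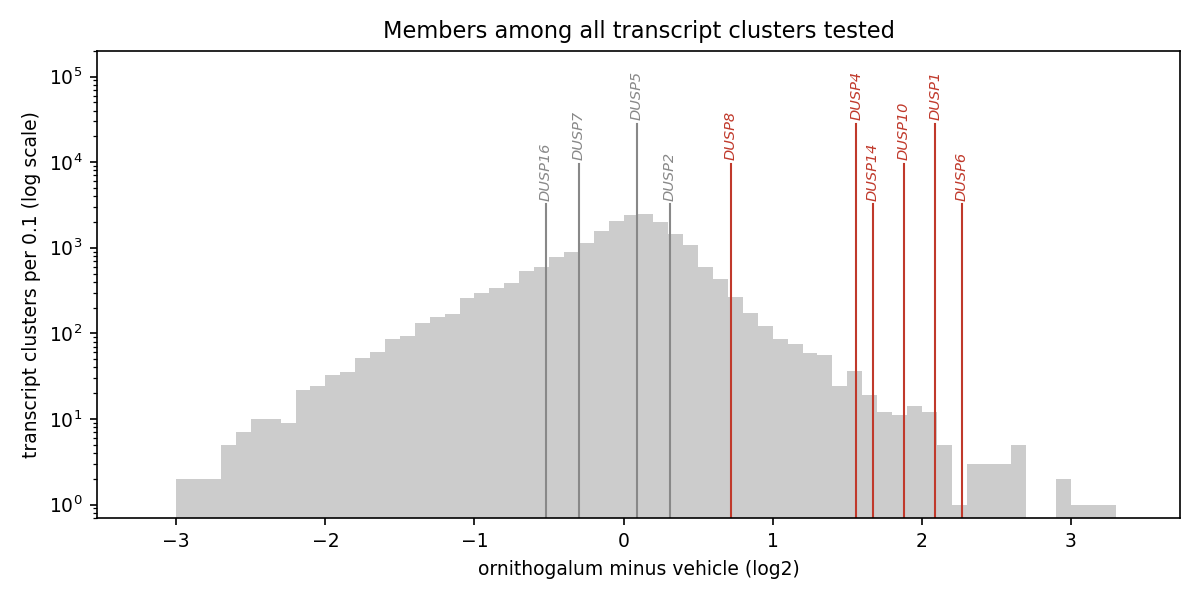
Histogram of log2 differences (ornithogalum minus vehicle) of all 21214 clusters tested, in steps of 0.1 with a log count axis, and the position of each member as a line, red where called higher. DUSP6, DUSP1 and DUSP10 lie in the upper tail at 2.27, 2.09 and 1.88, and DUSP2, DUSP5, DUSP7 and DUSP16 lie in the bulk between -0.52 and 0.31.

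Of 14 other DUSP genes measured, limma called 0 higher and 4 lower, as also at an unadjusted p under 0.05, and the median log2 difference was 0.02 (-0.03 under cyclic loess). The 4 were the pseudophosphatase gene STYXL1 (-1.30, arrays 3.61 and 4.34 against 5.27 on both), DUSP18 (-1.13), DUSP22 (-0.53) and DUSP12 (-0.47). The call of DUSP12 held in 5 of 14 alternatives and that of DUSP22 in 5 of 13. Both were lost under all 3 scalings, with every cluster tested, with the replicate block, and without ornithogalum replicate 1 or either vehicle array. DUSP12 was also lost with array weights. STYXL1 lost the call with every cluster tested and without either vehicle array. Without ornithogalum replicate 2, 1 of the 14 was called higher. DUSP9, the X-linked relative of DUSP6 and DUSP7, was singled out after its values were seen. It gave 5.27 and 5.04 against 4.96 and 5.01, a log2 difference of 0.17 (interval -0.17 to 0.51) that was not called.

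Phosphatases of other families that act on MAP kinases were measured in 8 genes, of which 2 rose and 0 fell (3 and 0 at an unadjusted p under 0.05), with a median of 0.23. PPM1D, a serine and threonine phosphatase of p38 and a p53 target gene, gave 7.15 and 7.28 against 5.69 and 5.61. That is a 2.95-fold rise (limma adjusted p = 0.00354). PPP2CB, a catalytic subunit of protein phosphatase PP2A, rose 1.93-fold, from 6.58 and 6.53 to 7.47 and 7.54 (adjusted p = 0.00726).

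The kinases that these phosphatases oppose, with their upstream activators, were counted next. In the ERK module 5 of 8 listed genes were analysed here, and limma called 0 higher and 2 lower, as also before adjustment, with a median of -0.13, which turned to 0.03 after median centring. MAPK3, which encodes ERK1, gave 7.12 and 6.85 with ornithogalum against 8.11 and 8.22, a 2.26-fold fall (limma adjusted p = 0.00769). ARAF, an activator of the MEK kinases, fell 1.51-fold (adjusted p = 0.0335), a call held in 8 of 14 alternatives. It was lost under median centring, with every cluster tested, with the replicate block, and without ornithogalum replicate 1 or either vehicle array. MAP2K1 and MAP2K2, the MEK kinases themselves, were not called (log2 differences -0.09 and -0.13).

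In the JNK and p38 module 18 of 20 listed genes were analysed, of which 1 rose and 3 fell. These counts are near the shares over all clusters tested, 6.57% called higher and 12.6% lower. The list median was -0.16 and was close to 0 after median centring. MAP2K3, a kinase that activates p38, rose 1.68-fold, from 5.59 and 5.58 to 6.53 and 6.15 (limma adjusted p = 0.0349), a call lost when every cluster was tested. MAPK9, which encodes JNK2, fell 1.72-fold (adjusted p = 0.0118). The p38 target kinases MAPKAPK5 and MAPKAPK3 fell 2.93-fold and 1.74-fold (adjusted p = 0.00351 and 0.0149). MAPKAPK5 values were 5.78 and 5.88 against 7.43 and 7.33, so its groups stood well apart.

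**Figure D4:**
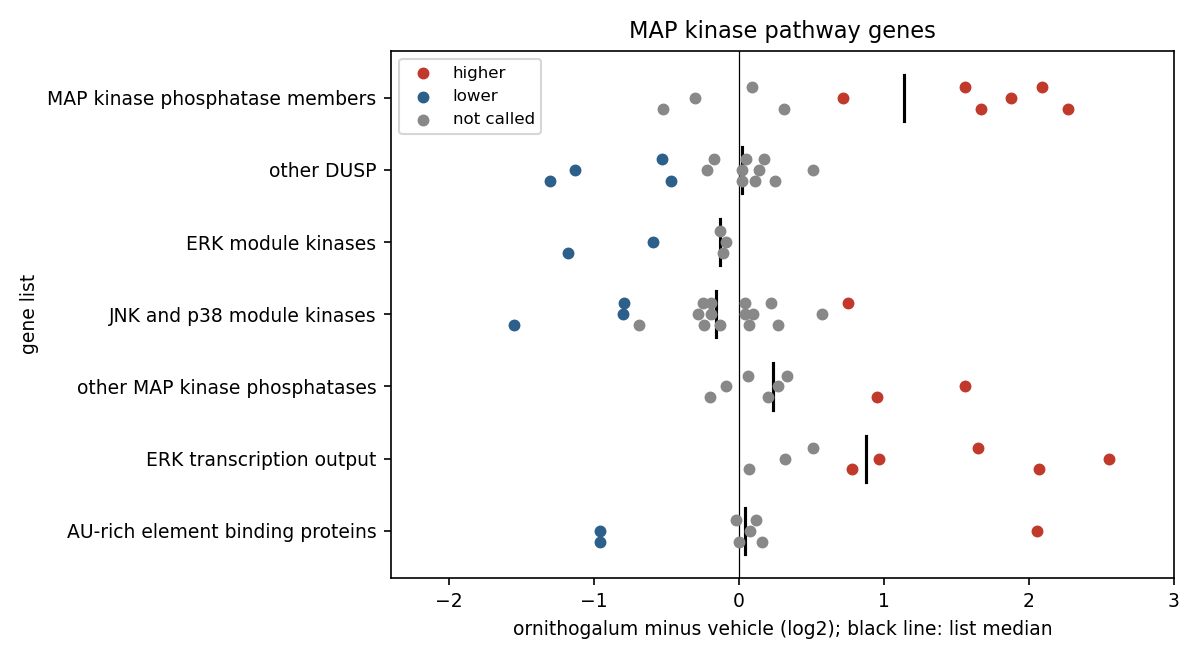
Log2 difference (ornithogalum minus vehicle) of each gene, as a point, in the member list and 6 lists around the MAP kinase pathway, with each list's median as a black line. Red points are called higher and blue points lower, and the members (median 1.14) and the ERK transcription output genes (median 0.87) have the highest medians.

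Of 8 genes outside the DUSP family whose transcription is known to follow ERK activity, 5 rose and 0 fell (6 and 0 at an unadjusted p under 0.05), and the list median was 0.87. The list was drawn up with earlier results of these data known. PHLDA1, a pleckstrin homology domain gene, gave 8.43 on both ornithogalum arrays against 5.80 and 5.95, a 5.87-fold rise (limma adjusted p = 0.00336). EPHA2, an ephrin receptor, rose 4.19-fold and SPRY4, a Sprouty feedback inhibitor of the pathway, 3.13-fold, both with adjusted p = 0.00336. The ETS factor genes ETV4 and ETV5, classical ERK outputs, were not called in the main fit. Their log2 differences were 0.07 (interval -0.22 to 0.35) and 0.51 (interval 0.16 to 0.85, limma adjusted p = 0.0609). Under all 3 scalings, among brighter clusters and with an intensity trend, plain or robust, 6 of the 8 genes were called higher.

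Over the 4 arrays, the genes closest to DUSP1 in their differences from the vehicle mean were EPHA2, the mitochondrial carrier SLC25A25 and HYCC2, at Euclidean distances of 0.055, 0.069 and 0.119 log2 units among 19459 clusters with a single symbol. Those closest to DUSP6 were the AP-1 subunit gene JUN (0.161), the phosphate transporter SLC20A1 (0.254) and the autophagy receptor SQSTM1 (0.273). JUN gave 8.75 and 8.47 against 6.33 and 6.52. With 4 arrays in 2 groups this measure is set mainly by the size of the difference, and it is given as a description.

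**Figure D5:**
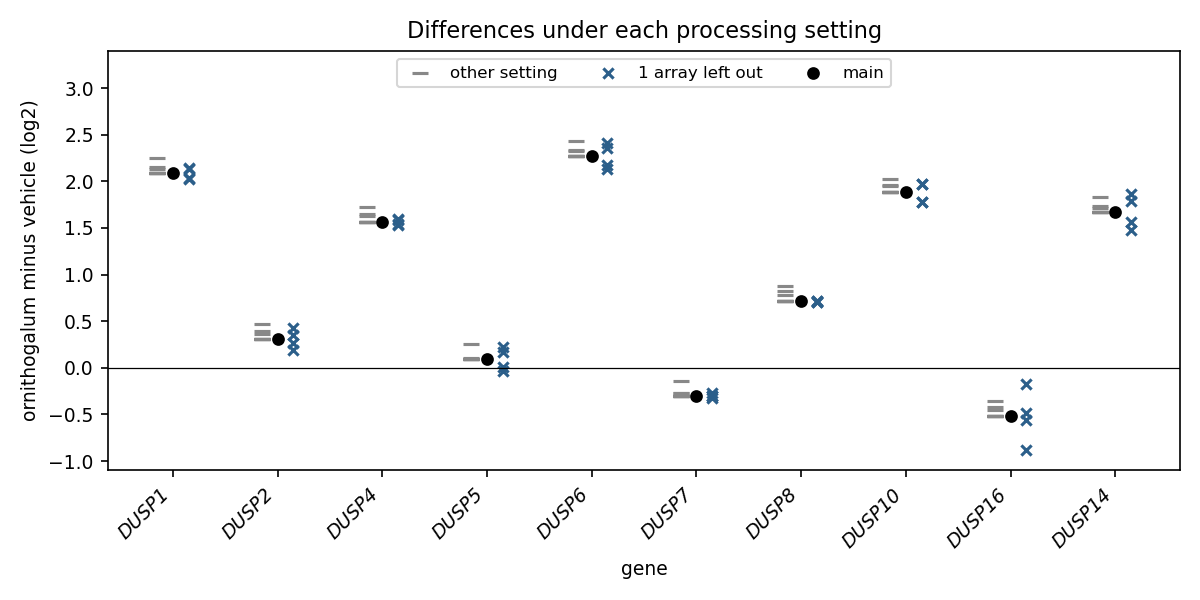
Log2 difference (ornithogalum minus vehicle) of each member in the main fit (black), in other processing settings (grey dashes) and with 1 array left out (blue crosses). The 6 called members stay between 0.71 and 2.43 throughout, DUSP16 runs from -0.88 to -0.17, and DUSP5 reaches -0.03 without ornithogalum replicate 1.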

How the data were processed

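Total RNA of 4 AGS cultures was labelled and hybridised to Affymetrix Human Gene 1.0 ST arrays. The deposited table holds log2 values that the authors made by RMA; the submitters' processing notes name Expression Console 1.1. Its settings were not stated, and no depth applies to arrays, whose number limits the precision. Of 33297 clusters, 21214 carry a symbol in the platform annotation, and these were tested. Of them 19460 have 1 symbol and 1754 several, and 19429 symbols matched the RefSeq gene table. Groups were compared with limma 3.58.1 in R 4.3.3 (lmFit, eBayes, no trend, two-sided, Benjamini-Hochberg), and the code was tested on simulated data. Intervals are 95% limma intervals and fold is 2 raised to the log2 difference. SDs are over 2 arrays. In a gene list each gene is its single-symbol cluster of highest mean. All members are named, and of each list the called genes of smallest p, at most 3 in each direction unless stated. DUSP12, DUSP9, CD68, PTPRC, LYZ, ETV4, ETV5, MAP2K1 and MAP2K2 were added after their values were seen. The members and lists were chosen with earlier results of these data known. Alternatives were 3 scalings, a filter at a mean log2 value of 5, other sets of clusters, other variance priors, array weights, the replicate number as a block and leaving out each array.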

Additional observations from a re-analysis of the deposited data

How the results depend on the processing

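Under the 10 alternatives that keep all arrays, limma called 6 members higher each time. Of members called lower there was 1 (DUSP7) among brighter clusters and with an intensity trend, plain or robust, against 0 otherwise. Median centring gave 2238 clusters higher against 1393, and testing every cluster of the table gave 1677 lower against 2683 and 7 pathway list genes lower against 11. Leaving out 1 array gave 0 to 3054 clusters higher and 0 to 4004 lower, 0 to 6 members higher, 0 to 1 lower (DUSP16), and 0 to 11 pathway list genes higher and 0 to 12 lower. No cluster was called without either vehicle array, where a single vehicle array is assumed to vary like the treated pair. The DUSP5 log2 difference ran from -0.03 to 0.22 in these fits. Replicate numbers were not shown to pair the cultures (correlation of same-numbered deviations across clusters -0.0585), and the fit with a replicate block had 6 members called higher and 0 lower, and 3302 clusters in all against 4076. The causes were not tested. DUSP2 and DUSP5, with mean log2 values under 5, were not in the brighter set, and for dim clusters a small change is hard to see.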

Other observations

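Proteins that bind AU-rich elements control the decay of short-lived messenger RNAs, among them those of early response genes such as DUSP1. Of 8 measured genes of this kind, 1 rose and 2 fell, against 6.57% called higher and 12.6% lower over all clusters tested. The list median log2 difference was 0.04. A part of these proteins in the member levels was not tested. ZFP36, which encodes the decay factor tristetraprolin, rose 4.16-fold (limma adjusted p = 0.0103), with 9.05 and 8.23 on the ornithogalum arrays against 6.55 and 6.62. The treated arrays differed from each other by an SD of 0.582, more than in any of the 10 members. HNRNPD, which encodes the decay factor AUF1, gave 9.05 and 9.29 against 10.14 and 10.12, a 1.94-fold fall (adjusted p = 0.0107). TIA1, a translational silencer, also fell 1.94-fold, from 7.47 and 7.28 to 6.36 and 6.47 (adjusted p = 0.00983). ELAVL1, which stabilises such messengers and was named after its values were seen, was not called, with a log2 difference of 0.00 (interval -0.31 to 0.31).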
